A study of Mus musculus with 12 samples.

Results

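The genes described here mark hepatic stellate cells, the vitamin A storing pericytes of the liver, or encode the extracellular matrix and the enzymes that build or protect it. They were taken by gene symbol from a list of 38 genes, and 37 of the 38 were measured, among 18820 genes tested. Fbn1, the fibrillin-1 gene, was not analysed here, because no probe set carried it as its 1 symbol. The list held 9 genes for stellate cell identity and secreted factors and 5 for small leucine-rich proteoglycans and matricellular proteins. Another 8 encode collagens of fibrils and of the collagen VI network, 4 the basement membrane, 4 measured genes the elastic fibre and its calcification, 4 matrix enzymes and inhibitors, and 3 the contractile apparatus. Each gene was represented by its brightest probe set, by the mean of all arrays. Loxl2 was the 1 member with more than 1 probe set.

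Stellate cells lie between the sinusoidal endothelium and the hepatocytes. In healthy liver they are quiescent and hold retinyl esters, and after injury they can become contractile myofibroblasts that secrete fibrillar collagens, a change driven largely by transforming growth factor beta and platelet-derived growth factor. The c-Jun N-terminal kinases JNK1 (Mapk8) and JNK2 (Mapk9) phosphorylate c-Jun, a subunit of the transcription factor AP-1. Whole liver RNA carries the stellate transcripts together with those of all other liver cells. A hepatocyte preparation can carry transcripts of these genes from other cells that remain in it or from the hepatocytes, which bulk arrays cannot tell apart.

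Expression was measured on 12 arrays, 1 for each sample, in whole liver and in primary hepatocytes of 6 male C57BL/6 mice aged 7 to 8 weeks and fed standard chow. The 3 control (WT) mice were Jnk1f/fJnk2+/+ littermates, and no Cre is named for them. The 3 JNKΔhepa mice lacked Jnk1 through Albf-Cre, a recombinase under the albumin promoter and alpha-fetoprotein enhancers, and lacked Jnk2 in every cell of the body, stellate cells included. Loss of Jnk1 in hepatocytes and loss of Jnk2 in all cells therefore cannot be told apart in these groups. Each mouse gave 1 liver and 1 hepatocyte sample, so the 4 groups held 3 arrays each. Mapk9 was at least 49.7-fold lower in JNKΔhepa liver and at least 41.8-fold lower in JNKΔhepa hepatocytes. Mapk8 was 1.32-fold and 1.52-fold lower (limma adjusted p = 0.027 and 0.00183), and both genes were lower in all 6 JNKΔhepa arrays, as the labels state.

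The deposited values were on a log2 scale, and their medians were 4.09 to 4.12 on the liver arrays against 3.22 to 3.28 on the hepatocyte arrays. The genotypes were therefore compared within each tissue on the deposited values, and the tissues were compared after all 12 arrays were quantile normalised together, here called the joint scale. Arrays of the same group correlated with each other at r = 0.9865 to 0.9928. The table had no detection calls, so a value below the 95th percentile of the 1006 olfactory receptor probe sets on its array was called dim, and a fold against a group with a dim array is given as a lower bound. A gene passed a comparison when its limma adjusted p, over all 18820 genes, was under 0.05. The number of arrays limits the precision. No scan date or array batch is given in the sources used here.

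The stellate cell markers were plainly present in whole liver. In WT liver 36 of the 37 members were above the dim level on every array, the exception being Timp1, which was dim on all 3. On WT hepatocyte arrays 9 members were dim on at least 1 array and 4 on all 3, and on JNKΔhepa hepatocyte arrays these numbers were 11 and 5. The 14 hepatocyte markers, albumin among them, had a mean of 11.88 to 11.99 over the liver arrays and 11.96 to 12.03 over the hepatocyte arrays on the joint scale.

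In both genotypes most stellate and matrix genes were lower in hepatocytes than in liver. In WT mice 33 of the 37 members fell and 0 rose, where 14.8% of all genes tested fell and 28.4% passed in either direction. In JNKΔhepa mice 33 members fell and 0 rose, where 15.6% of all genes fell and 29.9% passed in either direction. The median member differed by −1.38 in WT mice and by −1.66 in JNKΔhepa mice on the joint log2 scale, against 0.02 and 0.01 for all genes. With members that had dim hepatocyte arrays set at their bound, except Timp1, which has none, the medians were −1.37 and −1.50. The arrays of liver and hepatocytes did not overlap for 33 members in each genotype, all of them lower in hepatocytes, a pattern shown by 21.1% of all genes in WT and 23.2% in JNKΔhepa mice. In bulk samples, fewer cells of a type and less RNA per cell cannot be told apart. On the deposited values all 37 members fell in both genotypes, but there 86.2% of all genes in WT mice passed, with 113 of the 16231 higher, and the median gene shifted by −0.58.

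**Figure D1:**
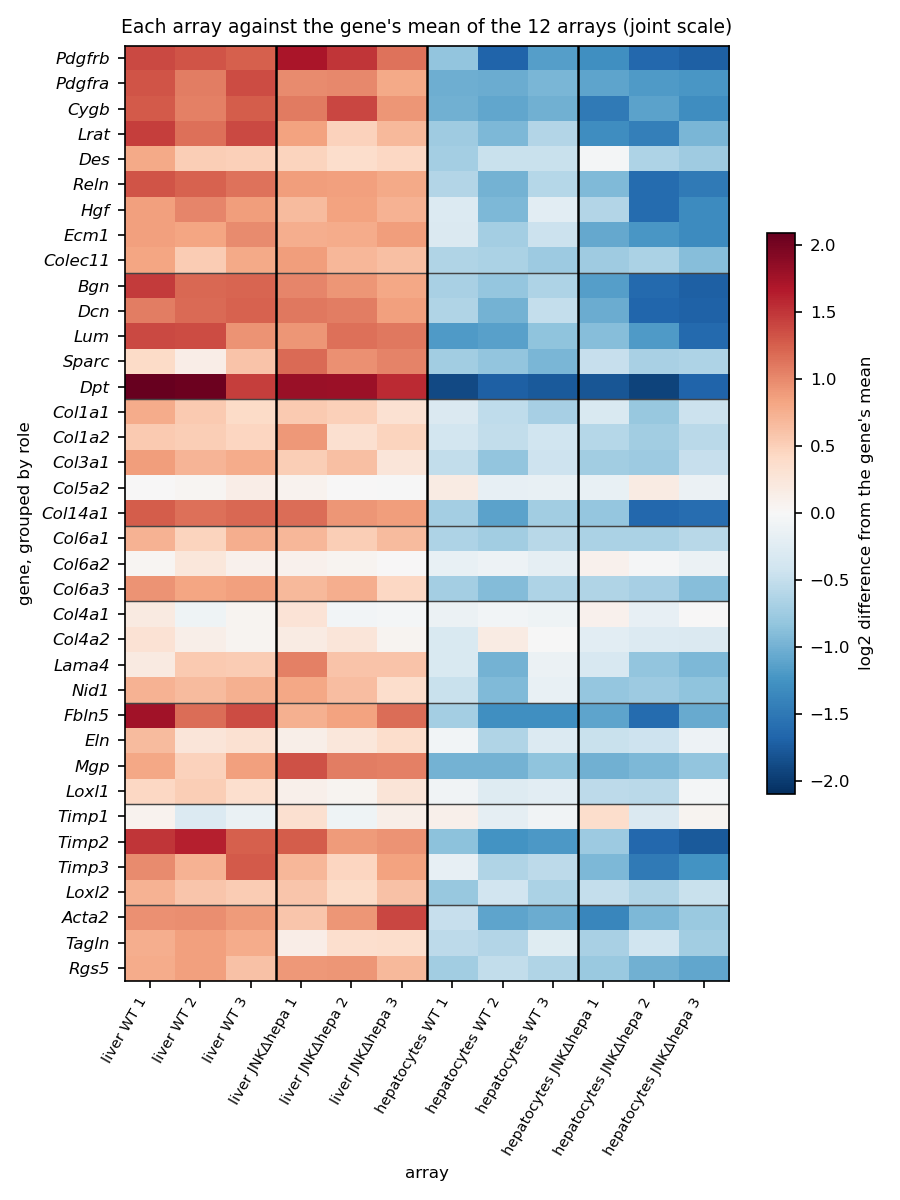
Joint-scale log2 value of each of the 37 measured genes on each of the 12 arrays, as the difference from that gene's mean over the arrays (red above, blue below). Rows are grouped by role with lines between the groups, and columns by group. Outside the pale rows of Col4a1, Col4a2, Col5a2, Col6a2 and Timp1, the liver arrays are red and the hepatocyte arrays mostly blue.

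All 9 genes of stellate cell identity fell in both genotypes. Lrat, the enzyme that esterifies retinol for storage, read 7.94, 7.64 and 7.87 on the WT liver arrays of replicates 1, 2 and 3 and 5.75, 5.56 and 5.87 on the WT hepatocyte arrays, on the joint scale. It was 4.27-fold lower in WT hepatocytes (log2 difference −2.09, SE 0.14, limma adjusted p = 1.18e-06), and the groups were far apart. Reln, a secreted glycoprotein that stellate cells make in liver, read 8.11, 8.03 and 7.93 in WT liver against 6.17, 5.80 and 6.20 in WT hepatocytes, a difference of −1.97 (SE 0.16). Pdgfrb, the receptor through which platelet-derived growth factor acts on stellate cells, read 6.53, 6.47 and 6.40 in WT liver and 4.33, 3.47 and 4.0 in WT hepatocytes. It was among the 3 largest differences in WT mice at 5.79-fold (−2.53, SE 0.20), and in JNKΔhepa mice it was 7.93-fold lower (−2.99, SE 0.20). Hgf, the hepatocyte growth factor that stellate cells supply to the parenchyma, read 6.77, 6.94 and 6.79 in WT liver and 5.64, 4.97 and 5.70 in WT hepatocytes, 2.63-fold lower. The remaining genes of this role were Pdgfra, Cygb (the stellate globin cytoglobin), Des (the intermediate filament desmin), Ecm1 and the collectin Colec11. Pdgfra was dim on 2 of 3 WT hepatocyte arrays and at least 4.59-fold lower there, and the others differed in WT mice by −2.24 for Cygb to −1.15 for Des.

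The 5 proteoglycan and matricellular genes also fell in both genotypes. Dpt, which encodes dermatopontin, a small matrix protein that binds decorin, gave the largest fitted difference in WT mice. It read 5.80, 5.75 and 5.15 on the WT liver arrays and 1.82, 2.00 and 1.95 on the WT hepatocyte arrays. All the hepatocyte values were dim, so it was at least 6.29-fold lower in WT and at least 5.74-fold lower in JNKΔhepa hepatocytes, and its place among the members is not exact. The collagen-binding proteoglycans lumican (Lum), biglycan (Bgn) and decorin (Dcn) differed by −2.28, −2.01 and −1.87 in WT mice, and Sparc by −1.22.

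Among the fibrillar and fibril-associated collagens 4 of 5 fell in each genotype. Col1a1, which encodes the alpha-1 chain of type I collagen, read 4.94, 4.71 and 4.55 in WT liver and 3.86, 3.63 and 3.46 in WT hepatocytes, 2.12-fold lower (limma adjusted p = 1.66e-04). Col3a1, the type III chain, read 5.09, 4.92 and 4.99 against 3.70, 3.40 and 3.78, 2.60-fold lower. For both genes the groups did not overlap. Col14a1, a collagen that sits on fibril surfaces, had the largest difference of this role at −2.06. Col5a2 was 1 of the 3 members with the smallest difference in WT mice, −0.12 (SE 0.11, adjusted p = 0.467). It read 3.02, 3.05 and 3.14 in WT liver and 3.18, 2.83 and 2.84 in WT hepatocytes, where it was dim on 1 array, and the groups overlapped.

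Not all network-forming collagen chains passed between the tissues. Col4a1, a chain of basement membrane collagen IV, read 4.69, 4.41 and 4.55 in WT liver and 4.38, 4.44 and 4.40 in WT hepatocytes, a difference of −0.14 (SE 0.11, limma adjusted p = 0.372), with overlapping groups. Its partner Col4a2 differed by −0.22 in WT mice (adjusted p = 0.178) and fell by 0.43 in JNKΔhepa mice (adjusted p = 0.0152), a call lost without JNKΔhepa liver replicate 2 (adjusted p = 0.0612). Of the collagen VI chains, Col6a1 fell by 1.31 in WT and by 1.26 in JNKΔhepa mice, and Col6a3, dim on all hepatocyte arrays, was at least 2.42-fold and 2.04-fold lower. Col6a2 fell by 0.27 in WT mice (adjusted p = 0.0285) and differed by −0.06 in JNKΔhepa mice (adjusted p = 0.619). Its WT call was lost without liver replicate 2 (adjusted p = 0.112) or 3 (0.0545) and without hepatocyte replicate 1 (0.0632) or 3 (0.0687). The basement membrane genes Lama4, a laminin chain, and Nid1, the linker nidogen-1, fell in both genotypes.

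Of the elastic fibre genes all 4 measured members fell in both genotypes: Fbln5, which organises elastic fibres, Eln, which encodes elastin, the calcification inhibitor Mgp and the crosslinking enzyme Loxl1. Fbln5 differed most of these, by −2.52 in WT mice. Eln was dim on 2 of 3 JNKΔhepa hepatocyte arrays and at least 1.39-fold lower there, a call lost without JNKΔhepa liver replicate 3 (limma adjusted p = 0.0522). Among the inhibitors of matrix metalloproteinases, Timp2 read 6.70, 6.82 and 6.45 in WT liver and 4.33, 3.95 and 4.0 in WT hepatocytes, 5.91-fold lower and without overlap. Timp3 fell by 1.45 in WT mice. Timp1, the inhibitor commonly induced in liver injury, read 2.52, 2.17 and 2.31 in WT liver and 2.56, 2.26 and 2.38 in WT hepatocytes. Both groups were dim, so no fold is given, and the difference was 0.06 (SE 0.16, adjusted p = 0.806).

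All 3 contractile genes fell in both genotypes. Acta2, the smooth muscle actin that marks activated stellate cells and vascular smooth muscle, read 4.88, 4.90 and 4.82 in WT liver. On the WT hepatocyte arrays it read 3.45, 2.82 and 2.89, at least 3.44-fold lower, and the groups did not overlap. Tagln, an actin-binding protein, and Rgs5, a regulator of G-protein signalling found in pericytes, also fell, Tagln at least 2.41-fold, since it was dim on hepatocyte arrays, and Rgs5 by 1.37.

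**Figure D2:**
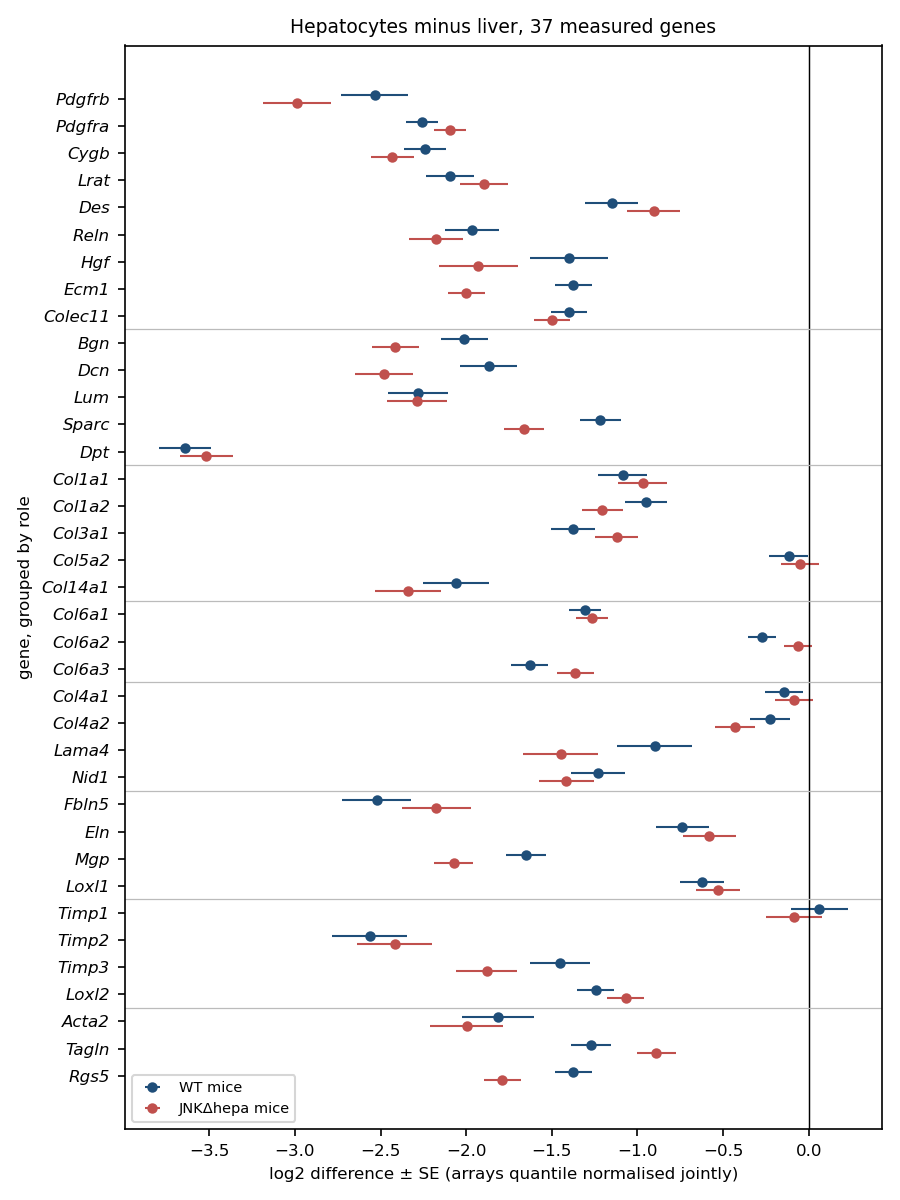
Log2 difference between hepatocytes and liver on the joint scale for each of the 37 measured genes, in WT mice (blue) and JNKΔhepa mice (red). Points are limma estimates from 3 arrays against 3, bars are standard errors, and grey lines part the roles. For members with dim hepatocyte arrays, among them Dpt, Pdgfra, Col6a3 and Mgp, the points are fitted values. Timp1 aside, their size is known only as a lower bound (8 in WT and 10 in JNKΔhepa mice). Timp1 had dim arrays in both tissues, so its point has no bound. Pdgfrb lies at −2.53 and −2.99, and Col4a1 lies near 0.

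Other gene lists placed these values. Of all genes tested, 14.8% fell in WT and 15.6% in JNKΔhepa mice. Of the 15 measured genes in a further list of stellate cell genes, 13 fell in WT and 12 in JNKΔhepa mice and 0 rose. The 18 liver endothelial markers all fell in both genotypes, with medians of −0.89 and −1.43, and 12 of the 13 Kupffer cell and macrophage markers fell in each, with medians of −1.32 and −1.84. Of 40 further matrix genes, 24 fell and 4 rose in WT mice, and 25 fell and 5 rose in JNKΔhepa mice. In WT mice 14 of 26 growth factor signalling genes and 9 of 25 collagen processing genes fell, and 1 of each list rose. There 6 of 12 smooth muscle and pericyte genes and 7 of 11 portal fibroblast and mesothelial genes fell, and 0 rose.

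Between the genotypes, 1 of the 37 members passed in whole liver, where 0.925% of all genes tested passed, 0.558% higher and 0.367% lower. That gene was Sparc, which encodes the collagen-binding matricellular protein osteonectin and which was higher in JNKΔhepa liver. On the deposited log2 scale Sparc read 9.02, 8.79 and 9.24 on the WT liver arrays of replicates 1, 2 and 3 and 9.81, 9.60 and 9.67 on the JNKΔhepa arrays. All JNKΔhepa values lay above all WT values. The difference was 0.67 (SE 0.12), or 1.60-fold (limma adjusted p = 0.0141), and it was 0.26 in hepatocytes (SE 0.12, adjusted p = 0.370), again without overlap. The call was lost without WT liver replicate 1 (adjusted p = 0.0601) or 2 (0.0540) and without JNKΔhepa liver replicate 1 (0.0740) or 3 (0.0525), with differences of 0.56 to 0.69. It was also lost when only the 6 liver arrays were fitted (adjusted p = 0.0687).

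Sparc lies on the same mouse chromosome as Mapk9, the gene deleted in all cells of the JNKΔhepa mice, with 168 genes between them in the RefSeq table. Of those, 79 were tested. In liver 2 passed (2.53%, all genes 0.925%), both lower, and in hepatocytes 3 (3.8%, all genes 0.84%), 1 higher and 2 lower. Cygb, Col1a1 and Timp2 are the other members on that chromosome, and 0 of these passed in a genotype comparison. Whether the position plays a part in the Sparc result was not tested.

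The promoter windows of the 3 members that passed in a genotype comparison are shown because JNK acts on AP-1, whose sites can be looked for there. They hold the 250 bases before the annotated gene start in RefSeq for GRCm38.p6, read 5′ to 3′ on the gene's strand, from the minus strand at chr11:55420081-55420330 for Sparc, the minus strand at chr3:95739570-95739819 for Ecm1 and the plus strand at chrX:73483351-73483600 for Bgn. Capitals mark matches on either strand to the AP-1 motif TGANTCA, the GC box GGGCGG and the TATA box TATAAA.
Sparc: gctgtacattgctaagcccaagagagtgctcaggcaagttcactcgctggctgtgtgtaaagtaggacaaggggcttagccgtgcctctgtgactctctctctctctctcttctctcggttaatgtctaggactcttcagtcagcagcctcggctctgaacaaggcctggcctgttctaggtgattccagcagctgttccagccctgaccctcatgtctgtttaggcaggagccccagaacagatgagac
Ecm1: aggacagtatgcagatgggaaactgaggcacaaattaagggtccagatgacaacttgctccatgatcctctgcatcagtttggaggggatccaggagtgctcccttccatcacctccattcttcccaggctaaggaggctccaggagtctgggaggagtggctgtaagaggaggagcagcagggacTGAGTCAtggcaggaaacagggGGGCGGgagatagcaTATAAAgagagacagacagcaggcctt
Bgn: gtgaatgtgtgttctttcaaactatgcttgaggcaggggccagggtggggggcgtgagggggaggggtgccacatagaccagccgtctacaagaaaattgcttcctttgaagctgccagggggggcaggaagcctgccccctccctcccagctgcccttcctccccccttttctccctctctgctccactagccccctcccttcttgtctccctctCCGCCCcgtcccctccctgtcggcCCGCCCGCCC

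The Ecm1 window held 1 match of each motif, with the AP-1 motif starting 64 bases, the GC box 42 bases and the TATA box 27 bases before the gene start. The Bgn window held 3 GC boxes, starting 34, 10 and 6 bases before the start, of which the last pair overlap. The Sparc window held none of these letters. Over all 32851 windows of this length the AP-1 motif was found in 6.75%, the GC box in 32.7% and the TATA box in 12.4%. Of the 24 members with a window, 2 had the AP-1 motif (Col6a1 and Ecm1), 13 the GC box and 2 the TATA box. A member counted when any of its windows held the motif, while the shares above are of windows, so they are unlike measures. A match describes the letters and is not a bound site.

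The other members did not pass in liver. Of the 37, 25 were below 0 in JNKΔhepa liver (67.6%, all genes 45.6%), and the median was −0.08 (all genes 0.02). At an unadjusted p under 0.05 there were 9 (24.3%, all genes 12.5%), 2 higher and 7 lower, where 8.14% of all genes were higher and 4.4% lower. WT and JNKΔhepa liver arrays were fully separated for 3 higher and 7 lower members, where 12.9% of all genes were higher and 7.57% lower in this way. The next smallest p-values belonged to Tagln, Mgp and Lrat, which are named because of their values. Lrat read 8.24, 7.94 and 8.18 in WT liver and 7.67, 7.35 and 7.51 in JNKΔhepa liver, without overlap, a difference of −0.61 (SE 0.14, limma adjusted p = 0.0767). Tagln differed by −0.48 (adjusted p = 0.0615) and Mgp by 0.47 (adjusted p = 0.0697). Mgp passed without WT liver replicate 3 (adjusted p = 0.0476).

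The genes most often read as signs of stellate cell activation did not pass in liver. On the deposited scale Col1a1 read 5.31, 5.09 and 4.97 in WT liver and 5.13, 5.11 and 4.91 in JNKΔhepa liver (difference −0.07, SE 0.13, limma adjusted p = 0.897). Col3a1 read 5.46, 5.29 and 5.38 against 5.15, 5.30 and 4.90 (−0.26, SE 0.12, adjusted p = 0.417). Acta2 read 5.25, 5.28 and 5.22 against 4.95, 5.31 and 5.73 (0.08, SE 0.19, adjusted p = 0.928). For these 3 genes the groups overlapped, and the Acta2 values of JNKΔhepa liver spread over a wider range than those of WT. Timp1 read 2.84, 2.42 and 2.55 in WT liver, all dim, and 3.10, 2.61 and 2.85 in JNKΔhepa liver, 2 of them dim, so the size of the difference is not exact (adjusted p = 0.601). Pdgfrb read 6.84, 6.78 and 6.72 against 7.22, 7.01 and 6.68 (0.19, SE 0.18, adjusted p = 0.761), and Reln differed by −0.37 (adjusted p = 0.391) and Hgf by −0.11 (adjusted p = 0.916).

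In hepatocyte preparations 2 of the 37 members passed, both lower in JNKΔhepa mice, where 0.84% of all genes passed, 0.367% higher and 0.473% lower. Ecm1, a secreted glycoprotein known to hold latent transforming growth factor beta inactive in liver, read 7.13, 6.70 and 7.01 on the WT arrays and 6.38, 6.20 and 6.12 on the JNKΔhepa arrays. The groups did not overlap, and Ecm1 was 1.63-fold lower (log2 difference −0.71, SE 0.11, limma adjusted p = 0.0100). In liver it read 8.89, 8.88 and 9.03 in WT against 8.81, 8.84 and 8.93 in JNKΔhepa mice, a difference of −0.08 (SE 0.11). Bgn, the proteoglycan biglycan, which binds collagen and transforming growth factor beta, read 7.39, 7.27 and 7.47 in WT against 6.96, 6.41 and 6.37 in JNKΔhepa hepatocytes. It was 1.74-fold lower without overlap (−0.80, SE 0.14, adjusted p = 0.0198), with JNKΔhepa replicate 1 nearest to WT. In liver Bgn read 10.09, 9.84 and 9.87 in WT against 9.70, 9.61 and 9.48 in JNKΔhepa mice, a difference of −0.34 (SE 0.14, adjusted p = 0.334).

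Both calls were lost in some of the 14 alternative fits. Over these fits the difference was −0.83 to −0.62 for Ecm1 and −0.99 to −0.69 for Bgn. Ecm1 lost its call without WT hepatocyte replicate 3 (limma adjusted p = 0.0516) and without JNKΔhepa hepatocyte replicate 2 (0.0564) or 3 (0.0606). Bgn lost it without these arrays (adjusted p = 0.0848, 0.0976 and 0.0879) and without WT hepatocyte replicate 1 (0.0789). Fitting only the 6 hepatocyte arrays gave adjusted p = 0.0807 for Ecm1 and 0.0979 for Bgn. The number of members that passed was 6 without WT hepatocyte replicate 2, where 2.06% of all genes passed. It was 7 without JNKΔhepa hepatocyte replicate 1, where 1.67% of all genes passed. With all arrays 0.84% of all genes passed. All of these members were lower, and the 7 were Ecm1, Bgn, Timp3, Dcn, Reln, Hgf and Col14a1.

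Most other members also read lower in JNKΔhepa hepatocytes without passing. Of the 37, 31 were below 0 (83.8%, all genes 50.6%), and the median was −0.16 (all genes −0.0018). An unadjusted p under 0.05 was found for 11 (29.7%, all genes 12.6%), 10 of them lower (27.0%, all genes 6.71%). The arrays did not overlap for 9 lower and 1 higher members, where 7.32% of all genes were lower and 7.36% higher in this way. Timp3 and Dcn, named because of their values, came next. Timp3 read 5.42, 4.98 and 5.10 in WT against 4.63, 4.08 and 4.34 in JNKΔhepa hepatocytes, a difference of −0.82 (SE 0.17, limma adjusted p = 0.0502). Dcn read 8.54, 8.19 and 8.68 against 8.15, 7.49 and 7.47, a difference of −0.77 (SE 0.17, adjusted p = 0.0599). Neither gene's groups overlapped.

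Among the stellate identity genes in hepatocyte preparations, Lrat read 5.35, 5.19 and 5.53 in WT against 4.78, 4.65 and 5.18 in JNKΔhepa mice (−0.49, SE 0.14, limma adjusted p = 0.161). Reln read 5.78, 5.41 and 5.87 against 5.53, 4.79 and 4.94 (−0.60, SE 0.17, adjusted p = 0.127). Hgf read 5.23, 4.60 and 5.37 against 4.91, 3.86 and 4.19 (−0.74, SE 0.23, adjusted p = 0.182). The Reln and Hgf groups overlapped, and for all 3 genes WT replicate 2 was the lowest of its group. None of the 8 collagens of fibrils and the collagen VI network passed in limma, and 1, Col14a1, had an unadjusted p under 0.05. Col1a1 and Col3a1 differed by −0.02 and −0.09, Col14a1 by −0.53 (adjusted p = 0.272), and the 3 collagen VI chains by −0.01 to 0.12. Acta2 differed by −0.15 (adjusted p = 0.836), with dim arrays in both groups.

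**Figure D3:**
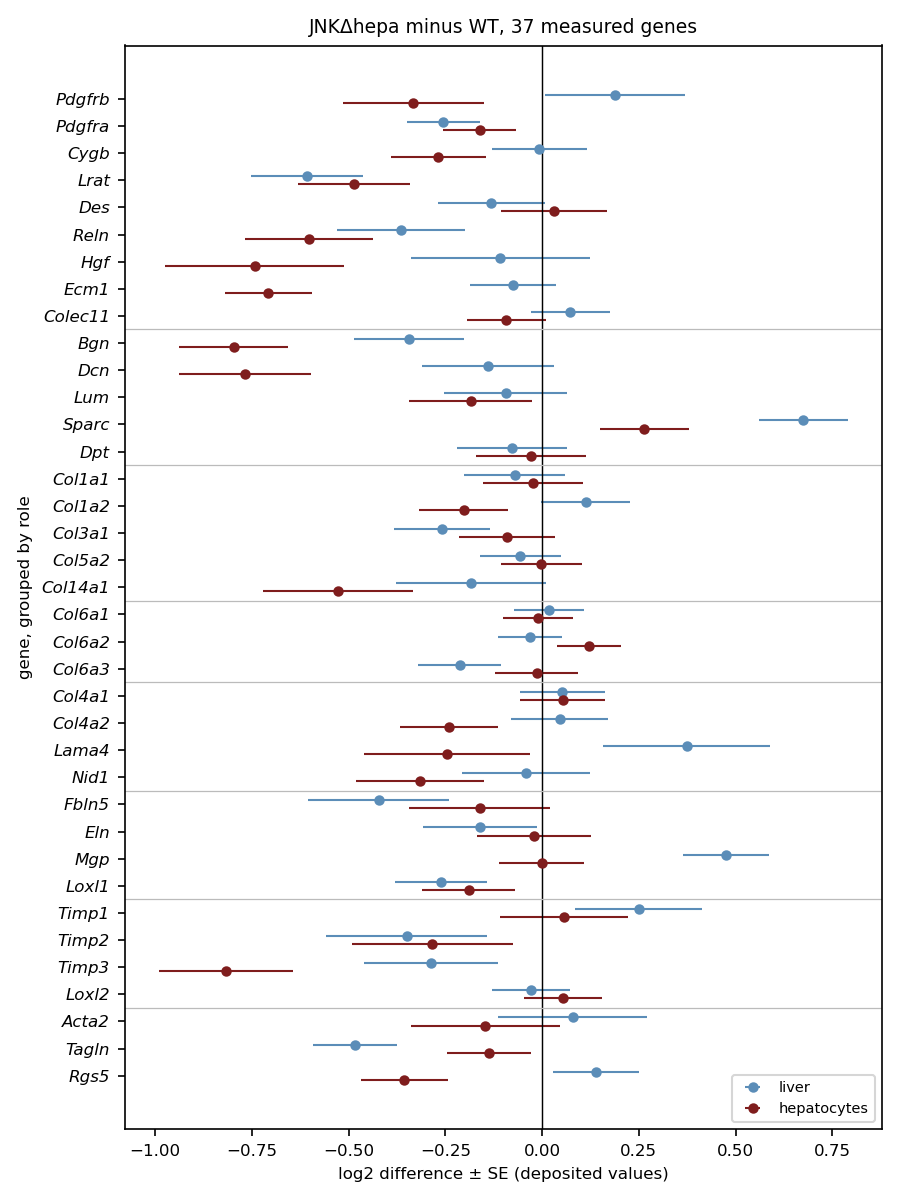
Log2 difference between JNKΔhepa and WT mice on the deposited values for each of the 37 measured genes, in liver (light blue) and hepatocytes (dark red). Points are limma estimates from 3 arrays against 3, bars are standard errors, and grey lines part the roles. Sparc lies farthest right at 0.67 in liver, and Timp3, Bgn, Dcn, Hgf and Ecm1 lie between −0.82 and −0.71 in hepatocytes.

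**Figure D4:**
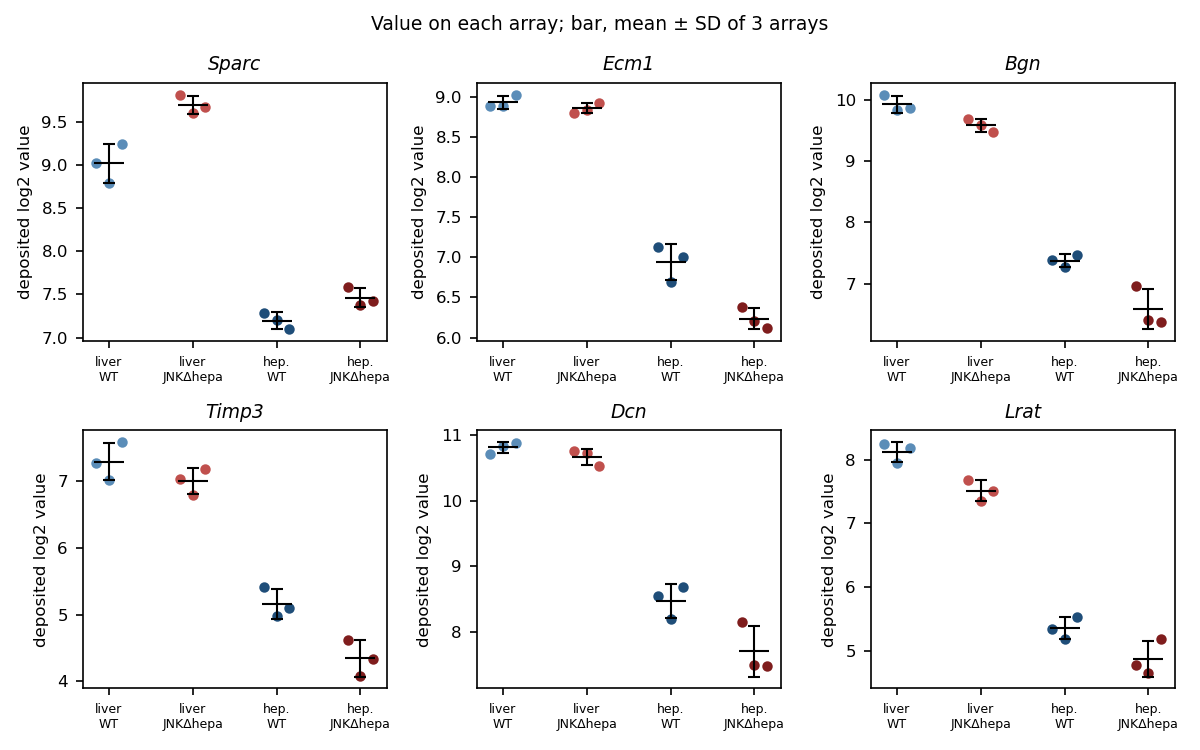
Deposited log2 value on each array for Sparc, Ecm1, Bgn, Timp3, Dcn and Lrat, with replicates 1, 2 and 3 from left to right in each group. Bars give the mean and SD of 3 arrays, and each panel has its own axis, which does not start at 0. The JNKΔhepa liver points of Sparc (9.60 to 9.81) lie above the WT points (8.79 to 9.24), and the JNKΔhepa hepatocyte points of Ecm1 and Bgn lie below the WT points.

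Endothelial markers and Kupffer cell and macrophage markers also read lower in the same JNKΔhepa hepatocyte preparations. Of the 18 endothelial markers 17 were below 0 there (94.4%, all genes 50.6%), with a median of −0.49. Among these markers 15 had an unadjusted p under 0.05 (83.3%, all genes 12.6%), though 0 passed. The log2 of their summed linear levels, from the deposited values, ranged from 10.83 to 11.24 on the WT and from 10.41 to 10.94 on the JNKΔhepa hepatocyte arrays. Of the 13 Kupffer cell and macrophage markers all 13 were below 0, with a median of −0.75. The 1 that passed (7.69%, all genes 0.84%) was C1qb (−1.08, limma adjusted p = 0.0225), a chain of complement C1q that macrophages make. The summed level of the 13 markers, on the same scale, ranged from 9.60 to 10.33 on the WT and from 8.95 to 9.56 on the JNKΔhepa arrays. In liver the same lists had medians of 0.12 and −0.13. None of the Kupffer cell markers was dim on any array, and at most 1 of the endothelial markers was dim on an array. Of 15 further stellate cell genes 13 were below 0 there too (86.7%, all genes 50.6%), with a median of −0.20. So were 27 of 40 further matrix genes (67.5%) and 14 of 25 genes of collagen processing, crosslinking and degradation (56%). Genes of transforming growth factor beta and platelet-derived growth factor signalling had 17 of 26 below 0 (65.4%). The lists of the remaining cell types did not read lower as a whole in these preparations. Below 0 were 2 of 8 cholangiocyte markers, 6 of 12 smooth muscle and pericyte genes and 5 of 11 portal fibroblast and mesothelial genes. Leukocyte markers had 5 of 9 below 0 and erythroid markers 0 of 2. Many of these genes were dim on each hepatocyte array: 6 to 7 of the 8 cholangiocyte and 7 to 8 of the 9 leukocyte markers. Dim as well were 6 to 9 of the 11 portal fibroblast and mesothelial and 5 to 7 of the 12 smooth muscle genes. Dim genes can hardly show a fall, so these counts do not set their lists apart from the endothelial and Kupffer lists. The 14 hepatocyte markers had a median of 0.04 in hepatocytes and 0 passed, with 2 at an unadjusted p under 0.05 (14.3%, all genes 12.6%). The C1qb call was lost without WT hepatocyte replicate 1 (adjusted p = 0.108) or 3 (0.0856) and without JNKΔhepa hepatocyte replicate 2 (0.0599) or 3 (0.0748), and with the 6 hepatocyte arrays alone (0.0928).

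By mean level, the endothelial, Kupffer and stellate and matrix lists had the same lowest WT and the same highest JNKΔhepa hepatocyte array. The further stellate cell, further matrix and growth factor signalling lists had this same pair of arrays. The smooth muscle and collagen processing lists shared only the highest JNKΔhepa array, replicate 1. In the portal fibroblast and mesothelial list the highest was replicate 3. The mean of the 37 members on the deposited scale was 3.99, 3.81 and 4.0 on the WT hepatocyte arrays of replicates 1, 2 and 3 and 3.84, 3.61 and 3.67 on the JNKΔhepa arrays. WT replicate 2 was the lowest of its group, and JNKΔhepa replicate 1 the highest of its own and above WT replicate 2, so the groups overlapped. The endothelial means were 6.33, 6.03 and 6.27 and then 6.04, 5.63 and 5.63. In 21 of the 37 members JNKΔhepa replicate 1 lay above replicates 2 and 3, and in 5 it lay below both. In 25 members WT replicate 2 lay below replicates 1 and 3. The shares of all genes with these orders were not computed, so the counts are not set apart from the arrays as a whole. The part that other liver cells had in the Ecm1 and Bgn results was not tested.

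**Figure D5:**
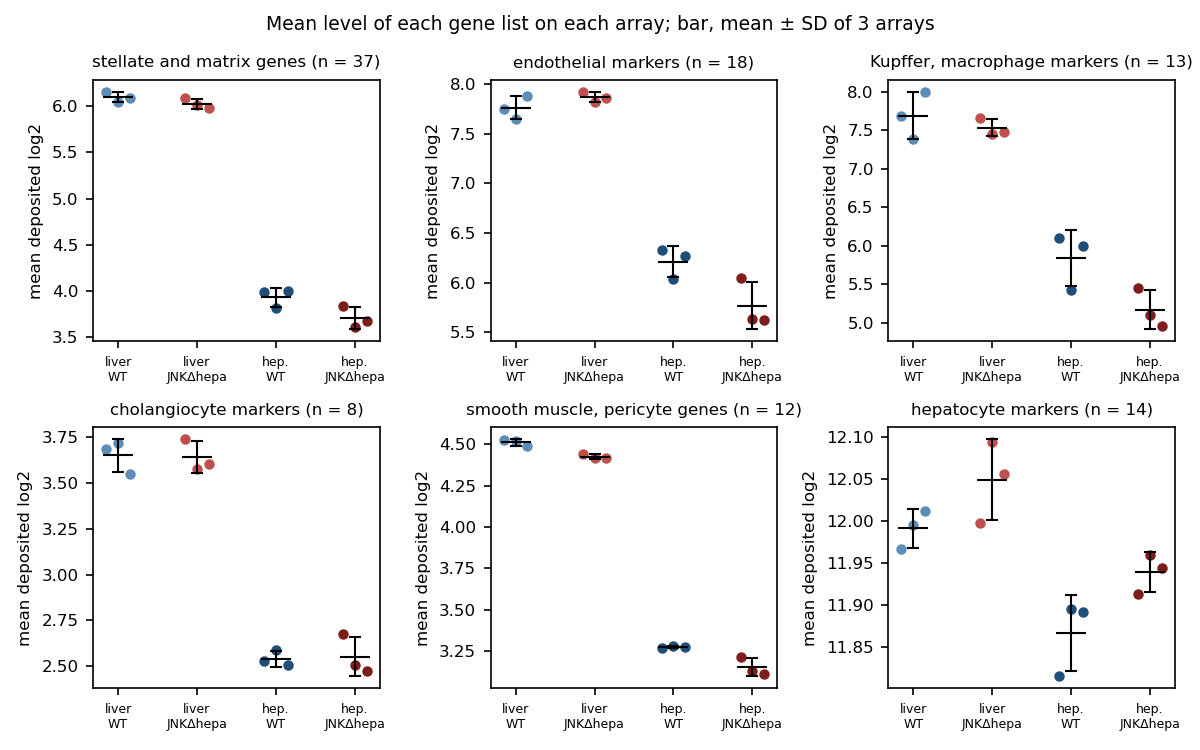
Mean deposited log2 value over the genes of each list on each array, for the 37 stellate and matrix genes and 5 lists of marker genes, with replicates 1, 2 and 3 from left to right. Bars give the mean and SD of 3 arrays, and each panel has its own axis, which does not start at 0. Among the hepatocyte arrays the stellate and matrix, endothelial, Kupffer, and smooth muscle and pericyte panels share their highest JNKΔhepa array, replicate 1.

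The genotype effect was not shown to differ between the tissues for any member. In the test of that difference 0 of the 37 members passed, where 0.0106% of all genes passed, and 7 had an unadjusted p under 0.05 (18.9%, all genes 7.22%), 1 higher and 6 lower (16.2%, all genes 4.57%). The smallest p-values belonged to Ecm1, Rgs5 and Mgp. For Ecm1 the hepatocyte effect minus the liver effect was −0.63 (SE 0.16, limma adjusted p = 0.398). Rgs5 read 6.73, 6.83 and 6.62 in WT liver, 6.94, 6.94 and 6.72 in JNKΔhepa liver, 4.47, 4.78 and 4.68 in WT hepatocytes and 4.46, 4.22 and 4.17 in JNKΔhepa hepatocytes, a difference between the effects of −0.50 (SE 0.16, adjusted p = 0.545). Mgp read 4.44, 4.13 and 4.53 in WT liver and 5.01, 4.78 and 4.73 in JNKΔhepa liver, and was dim in hepatocytes of both genotypes, so the size of the difference between the effects is not exact (adjusted p = 0.558). Of the 37 members, 22 were below 0 in both tissues, 3 above 0 in both, 9 above 0 in liver and below 0 in hepatocytes, and 3 the reverse.

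Of 26 measured genes of transforming growth factor beta and platelet-derived growth factor signalling, which acts on stellate cells, 2 fell in JNKΔhepa liver (7.69%, against 0.925% of all genes) and 0 rose. In JNKΔhepa hepatocytes 1 rose (3.85%, against 0.84% of all genes) and 0 fell. In liver 10 of the 26 (38.5%, all genes 7.57%) read lower in JNKΔhepa mice without overlap, and 10 had an unadjusted p under 0.05 (38.5%, all genes 12.5%), 4 higher and 6 lower. Pdgfd, a ligand of the receptor that Pdgfrb encodes, read 4.15, 4.07 and 4.32 in WT liver and 3.57, 3.16 and 3.27 in JNKΔhepa liver. It was 1.79-fold lower without overlap (−0.84, SE 0.14, limma adjusted p = 0.0142). The call was lost without WT liver replicate 1 (adjusted p = 0.0585) and without JNKΔhepa liver replicate 2 (0.0698) or 3 (0.0657). Tgfb3, a transforming growth factor beta ligand, read 4.18, 4.21 and 4.18 in WT against 3.73, 3.62 and 3.42 in JNKΔhepa liver (−0.60, SE 0.12, adjusted p = 0.0351). Its call was lost without each of the 6 liver arrays in turn (adjusted p = 0.0594 to 0.132). Skil, a repressor of SMAD-dependent transcription, read 5.08, 5.50 and 5.01 in WT against 5.76, 6.20 and 5.83 in JNKΔhepa hepatocytes, 1.66-fold higher (0.73, SE 0.14, adjusted p = 0.0242). That call was lost without WT replicate 1 (adjusted p = 0.115) or 3 (0.103) and without JNKΔhepa replicate 2 (0.102) or 3 (0.0680), and in the fit of the 6 hepatocyte arrays alone (0.143).

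Among 15 further stellate cell genes 0 passed in liver, with 2 at an unadjusted p under 0.05 in limma (13.3%, all genes 12.5%). There 14 of the 15 were below 0 (93.3%, all genes 45.6%), and 5 read lower without overlap (33.3%, all genes 7.57%). In hepatocytes 1 passed, Bmp5 (6.67%, all genes 0.84%). Bmp5, a bone morphogenetic protein ligand, read 4.43, 3.94 and 4.54 in WT against 3.81, 3.38 and 3.46 in JNKΔhepa mice. It was 1.68-fold lower without overlap (−0.75, SE 0.15, limma adjusted p = 0.0324), a call lost without WT replicate 1 (adjusted p = 0.138) or 3 (0.123) and without JNKΔhepa replicate 2 (0.141) or 3 (0.139), and in the fit of the 6 hepatocyte arrays alone (0.168). Of 40 further matrix genes 8 had an unadjusted p under 0.05 in liver (20%, all genes 12.5%). Without overlap 10 read lower there (25%, all genes 7.57%) and 1 higher (2.5%, all genes 12.9%). The 1 that passed in liver (2.5%, all genes 0.925%) was Abi3bp, a secreted matrix protein. It read 6.21, 6.06 and 6.17 in WT against 5.60, 5.33 and 5.68 in JNKΔhepa liver (−0.61, SE 0.10, adjusted p = 0.0129), and lost its call without WT liver replicate 1 (0.0675) and in the fit of the 6 liver arrays alone (0.0552). In hepatocytes 0 of the 40 matrix genes passed, with 6 at an unadjusted p under 0.05 (15%, all genes 12.6%). Of 25 genes of collagen processing, crosslinking and degradation 0 passed in liver or in hepatocytes. At an unadjusted p under 0.05 there were 3 in liver (12%, all genes 12.5%) and 4 in hepatocytes (16%, all genes 12.6%).

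Among 12 vascular smooth muscle and pericyte genes 1 passed in each tissue (8.33%, all genes 0.925% in liver and 0.84% in hepatocytes). This was Mcam, an adhesion molecule of endothelium and pericytes, which fell in both tissues. It read 5.73, 5.57 and 5.46 in WT against 4.68, 4.56 and 4.35 in JNKΔhepa liver, 2.08-fold lower (−1.06, SE 0.16, limma adjusted p = 0.00701). In hepatocytes it read 3.91, 3.53 and 3.81 against 2.84, 2.80 and 2.24, at least 2.03-fold lower (adjusted p = 0.00464). Neither pair of groups overlapped, and Mcam kept both calls when each array was left out in turn. Of 8 cholangiocyte markers 1 passed in liver (12.5%, all genes 0.925%), Muc1, a mucin of ductal cells. Muc1 was dim on the WT arrays and at least 1.39-fold higher in JNKΔhepa liver (adjusted p = 0.0195). Its call was lost without WT liver replicate 1 (adjusted p = 0.0837) or 2 (0.0648) and without JNKΔhepa liver replicate 1 (0.0705) or 2 (0.0800), and with the 6 liver arrays alone (0.0927). Of 11 portal fibroblast and mesothelial genes, 9 leukocyte markers and 2 erythroid markers 0 passed between the genotypes in either tissue. At an unadjusted p under 0.05 there were 1, 1 and 1 in liver (9.09%, 11.1% and 50%, all genes 12.5%). In hepatocytes there were 1, 0 and 0 (9.09%, 0% and 0%, all genes 12.6%).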

How the data were processed

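Per the submitters' processing notes, the authors ran RMA (robust multi-array average), with no version stated. The deposited values range as log2 values do and were used as such. The sources used here name neither the genome build nor whether the tissues were normalised separately. Of 35556 probe sets, 21218 carried 1 symbol in the platform annotation, for 18820 genes. No value was missing, and every column was matched to its sample by its label.

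Group means were fitted over the 12 arrays in R 4.3.3 by limma 3.58.1 and, for random blocks, statmod 1.5.0, with 8 residual and 4.76 prior degrees of freedom, two-sided tests, and Benjamini-Hochberg adjustment over all genes. Tissues were compared after joint quantile normalisation. The fit was tested on simulated data. Figures were drawn with Python 3.11.15, matplotlib 3.10.9, pandas 2.3.3 and numpy 2.4.6. Promoter windows came from RefSeq (GRCm38.p6).

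The labels' mouse number ties liver and hepatocytes of 1 animal. Their deviations from the group means correlated at −0.02 to 0.08, and for 3 of 12 arrays the best match outside the group was the same mouse. In the reported fit the 12 arrays entered as separate units, though each mouse gave an array in each tissue. With 3 mice a genotype, p-values rest on a spread between arrays that was pooled over the 4 groups.

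Members, role groups and the 12 other gene lists were chosen with earlier results of these data known. Array values were given for members that passed between genotypes, or the 3 with the smallest p where none did, for the 3 largest and 3 smallest tissue differences in WT, and for Lrat, Reln, Pdgfrb, Col1a1, Col3a1, Acta2, Timp1 and Hgf. Genes of other lists were named where they passed between genotypes. Alternatives were joint normalisation, deposited values, median centring, the replicate or mouse block, single-tissue fits, probe set means, a filter on dim genes, array weights, an intensity trend, and leaving out each array.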

Additional observations from a re-analysis of the deposited data

How the results depend on the processing

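In liver, 1 member passed in the reported fit. The count was 2 with the replicate number as a block (Sparc and Lrat), where 0.584% of all genes passed. It was 0 with the 6 liver arrays alone (all genes 0.675%) and 4 with array weights (Sparc, Mgp, Lrat and Tagln, all genes 2.17%). When each array was left out it was 0 to 2 (all genes 0.425% to 1.11%). The reported fit had 0.925% of all genes. In hepatocytes, 2 members passed. The count was 3 with the replicate block (Ecm1, Bgn and Timp3), where 0.733% of all genes passed. It was 0 with the 6 hepatocyte arrays alone (all genes 0.409%) and 4 with an intensity trend (Ecm1, Bgn, Dcn and Timp3, all genes 1.11%). When each array was left out it was 0 to 7 (all genes 0.324% to 2.06%). The reported fit had 0.84% of all genes. The replicate number does not pair mice of the 2 genotypes, so the block shares only a number with them. The test of the difference between tissues gave 0 members under every alternative, the mouse block included. Between the tissues the count stayed at 33 in each genotype with median centring and with the mouse block. Over all alternatives 0 of 858 member values changed sign, and 7 lost their call, all of Col6a2, Col4a2 or Eln. Col6a2 lost its WT call with an intensity trend as well (limma adjusted p = 0.0686). Of all genes, 56.5% in WT and 60.4% in JNKΔhepa mice passed with median centring, and 26% and 27.7% with the mouse block. Tgfb3 lost its liver call under joint normalisation (adjusted p = 0.0549). The cause of these changes was not tested. With 3 arrays a group, small changes of dim genes such as Timp1 could not be measured, and the median of all genes shifted by −0.58 and −0.60 between the tissues on the deposited values and by 0.26 and 0.28 with median centring.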
